A study of Mus musculus with 15 samples.

Results

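Claudins are the membrane proteins that form the strands of tight junctions, the seals that hold neighbouring epithelial cells together and set which ions and solutes pass between them. Each claudin spans the membrane several times, and its cytoplasmic tail binds the scaffold proteins of the ZO family (such as Tjp1). Which claudins a cell makes decides how tight or leaky its junctions are, and epithelia that form early in the embryo switch on claudins of this group. The 6 genes described here are Cldn3, Cldn4, Cldn6, Cldn7, Cldn8 and Cldn9, out of 31829 gene names on the array. They were chosen by name, with earlier results of these data known, so their counts beside those of all genes describe and do not test. Each is read from its probe with the highest mean processed signal. All 6 entered the test, among 25090 genes that did; Cldn8 entered through 1 group only, the sole group in which it was well above background.

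The cells were mouse embryonic stem (ES) cells, and the total RNA of each sample was read on its own 1-colour Agilent array. Every sample carried a short hairpin RNA, either the control hairpin shCTR or the hairpin sh4. The groups were untreated shCTR (4 arrays), untreated sh4 (4), shCTR after 72 hours in 1 µM retinoic acid (4) and sh4 after the same treatment (3). Retinoic acid is the active form of vitamin A and drives ES cells to differentiate. The labels name neither the gene that sh4 targets nor the ES line, and they give no culture time for untreated cells, so the drug and the time in culture cannot be told apart. The samples are called biological replicates without word of separate cultures, so p-values measure the spread between these samples, and the number of arrays limits the precision.

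Phf19, a Polycomb-associated protein, is named in the series title. Its level in sh4 was 30.2% of that in shCTR among untreated cells (log2 change −1.73 ± 0.09 SE, adjusted p = 7.3e-09, limma) and 54.4% of it in retinoic acid (−0.88 ± 0.09, adjusted p = 1.9e-05). Phf19 also fell with retinoic acid in shCTR, to 22.4% (−2.16 ± 0.09, adjusted p = 7.3e-11). That put shCTR with retinoic acid below untreated sh4 (−0.43 ± 0.09, adjusted p = 0.00064). The interaction of Phf19 was 0.85 ± 0.13 (adjusted p = 0.00036). All 7 ES cell markers checked, among them Pou5f1, Sox2 and Nanog, were well above background on all 15 arrays. The percentage of probes well above background ran from 73.8% to 79.4% over the arrays and no spot was saturated. The arrays lay on 4 slides. Slide and replicate number coincide except in sh4 with retinoic acid, which has no array on slide 4, so only 3 slides give within-slide values for that group.

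The 6 genes lie in 4 places. On mm9, the probe of Cldn6 lies at chr17:23819027-23819086 on the plus strand and that of Cldn9 at chr17:23820168-23820227 on the minus strand, with 1081 bases between them. The Cldn4 probe lies at chr5:135422135-135422194 on the minus strand and the Cldn3 probe at chr5:135463283-135463342 on the plus strand, 41088 bases apart. Cldn7 was read at chr11:69781255-69781314 on the plus strand and Cldn8 at chr16:88561135-88561194 on the minus strand. In RefSeq's gene order Cldn4 and Cldn3 are direct neighbours, and so are Cldn6 and Cldn9. No 2 of the members' probes share a run of more than 7 bases.

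Promoter sequence was at hand for 4 of the 6 genes, Cldn3, Cldn4, Cldn6 and Cldn7, and is shown so that the upstream bases of these claudins can be set side by side. Each stretch is the 250 bases before a RefSeq start of the assembly GRCm38.p6, read 5′ to 3′ in the direction of the gene. Capitals mark matches, on either strand, to 6 searched motifs: GGGCGG (GC box), CACCTG (the E-box bound by Snail and ZEB repressors), AGGTCA (half-site of nuclear receptors), AACCGG and AACCNGTT (Grainyhead-like factors, which can overlap each other) and TTTATG (Cdx factors). Cldn7 has 2 starts. In the second Cldn7 stretch a match to AACCGG and one to CACCTG lie side by side and form 1 run of capitals.
Cldn3, chr5:134985964-134986213, plus strand: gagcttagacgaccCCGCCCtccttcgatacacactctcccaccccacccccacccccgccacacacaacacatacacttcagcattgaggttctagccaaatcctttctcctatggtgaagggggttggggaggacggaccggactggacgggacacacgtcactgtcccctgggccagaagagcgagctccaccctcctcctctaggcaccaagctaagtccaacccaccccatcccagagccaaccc
Cldn4, chr5:134946935-134947184, minus strand: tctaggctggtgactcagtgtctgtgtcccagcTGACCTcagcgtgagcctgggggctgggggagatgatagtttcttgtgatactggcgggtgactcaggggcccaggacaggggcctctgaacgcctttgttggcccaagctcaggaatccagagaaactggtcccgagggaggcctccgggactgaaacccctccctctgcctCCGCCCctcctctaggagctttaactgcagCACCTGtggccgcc
Cldn6, chr17:23679115-23679364, plus strand: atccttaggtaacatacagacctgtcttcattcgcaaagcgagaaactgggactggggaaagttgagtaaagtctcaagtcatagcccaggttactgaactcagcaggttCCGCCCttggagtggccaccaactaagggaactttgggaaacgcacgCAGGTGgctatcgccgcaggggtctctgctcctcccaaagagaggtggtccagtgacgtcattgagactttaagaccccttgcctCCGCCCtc
Cldn7, first start, chr11:69964529-69964778, plus strand: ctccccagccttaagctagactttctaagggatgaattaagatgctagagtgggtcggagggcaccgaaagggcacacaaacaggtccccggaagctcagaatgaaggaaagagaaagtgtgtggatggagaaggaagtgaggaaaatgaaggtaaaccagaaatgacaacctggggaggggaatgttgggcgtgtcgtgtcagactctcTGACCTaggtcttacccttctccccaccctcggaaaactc
Cldn7, second start, chr11:69965171-69965420, plus strand: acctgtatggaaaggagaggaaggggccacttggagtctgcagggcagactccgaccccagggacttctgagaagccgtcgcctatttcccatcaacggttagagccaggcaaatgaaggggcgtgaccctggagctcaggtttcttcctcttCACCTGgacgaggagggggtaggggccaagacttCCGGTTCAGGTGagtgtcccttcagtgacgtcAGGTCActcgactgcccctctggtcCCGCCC
GGGCGG matched in Cldn3, Cldn4, Cldn6 and the second Cldn7 stretch, and in 32.7% of 32851 mouse promoter windows of the same length. CACCTG matched in Cldn4, Cldn6 and the second Cldn7 stretch, against 17.2% of all windows. AGGTCA matched in Cldn4 and in both Cldn7 stretches (14% of all windows), AACCGG in the second Cldn7 stretch (5.62%), and neither AACCNGTT (1.79%) nor TTTATG (10.8%) in any of the 5. The percentage of G and C was 60.8 in Cldn3, 62.0 in Cldn4, 53.6 in Cldn6 and 51.2 and 60.0 in the Cldn7 stretches, against a median of 52.4. These matches describe the letters and were not tested for binding.

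In untreated cells, sh4 was compared with shCTR. All 5 claudins that were well above background on every array rose at the threshold used throughout, an adjusted p of 0.05, while Cldn8 had no measured level in either group. Cldn6 rose most, 10.3-fold, followed by Cldn7, 8.69-fold, Cldn3, 4.52-fold, Cldn4, 3.01-fold, and Cldn9, 2.60-fold. In this comparison 14.4% of the 25090 genes were called higher and 14.1% lower. The median log2 change of the 5 was 2.18, against 0.02 over all genes tested.

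Cldn6 is a claudin of embryonic epithelia. Its processed signal, in array intensity, was 285, 326, 331 and 308 on the 4 shCTR arrays and 3097, 2865, 3075 and 4290 on the 4 sh4 arrays. The groups did not overlap. On the log2 scale, with 0 at the 75th percentile of its array, it stood at −2.35 ± 0.09 (SD, n = 4) in shCTR and 1.02 ± 0.12 (SD, n = 4) in sh4, a log2 change of 3.37 ± 0.08 SE (adjusted p = 1.5e-11, limma). Within slides the change ran from 3.27 to 3.48.

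Cldn7 binds the cell adhesion protein EpCAM and lies along the sides of epithelial cells as well as in junctions. It read 594, 652, 739 and 638 in shCTR and 5238, 4804, 5860 and 7600 in sh4. Every sh4 array lay far above every shCTR array, and the log2 level went from −1.28 ± 0.14 (SD, n = 4) to 1.84 ± 0.17 (SD, n = 4). The change was 3.12 ± 0.11 SE (adjusted p = 3.4e-10, limma), and 3.02 to 3.24 within slides.

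Cldn3 and Cldn4 are barrier-forming claudins and the classic receptors of the Clostridium perfringens enterotoxin. Cldn3 read 757, 696, 674 and 729 in shCTR and 3319, 3022, 3056 and 3798 in sh4, with no overlap. Its log2 change was 2.18 ± 0.08 SE (adjusted p = 7.7e-10, limma; 2.04 to 2.26 within slides). Cldn4 read 503, 522, 550 and 475 in shCTR and 1534, 1449, 1497 and 1818 in sh4. The groups were again apart, and the change was 1.59 ± 0.09 SE (adjusted p = 1.8e-08, limma; 1.5 to 1.65 within slides). A second Cldn4 probe, at chr5:135421347-135421406 on the minus strand, gave 1.52.

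Cldn9 is the close relative and direct neighbour of Cldn6. It read 211, 249, 161 and 147 in shCTR and 453, 477, 509 and 553 in sh4. All sh4 arrays were higher, with a wider spread among the controls than for the other members: −3.08 ± 0.29 (SD, n = 4) against −1.70 ± 0.09 (SD, n = 4). The log2 change was 1.38 ± 0.14 SE (adjusted p = 5.9e-06, limma; 1.07 to 1.72 within slides).

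Cldn8 is a claudin of the distal kidney tubule that pairs with Cldn4 there. It was well above background on none of the 8 untreated arrays, where its processed signal was between 1.45 and 2.86. No fold between the untreated groups is therefore given.

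**Figure D1:**
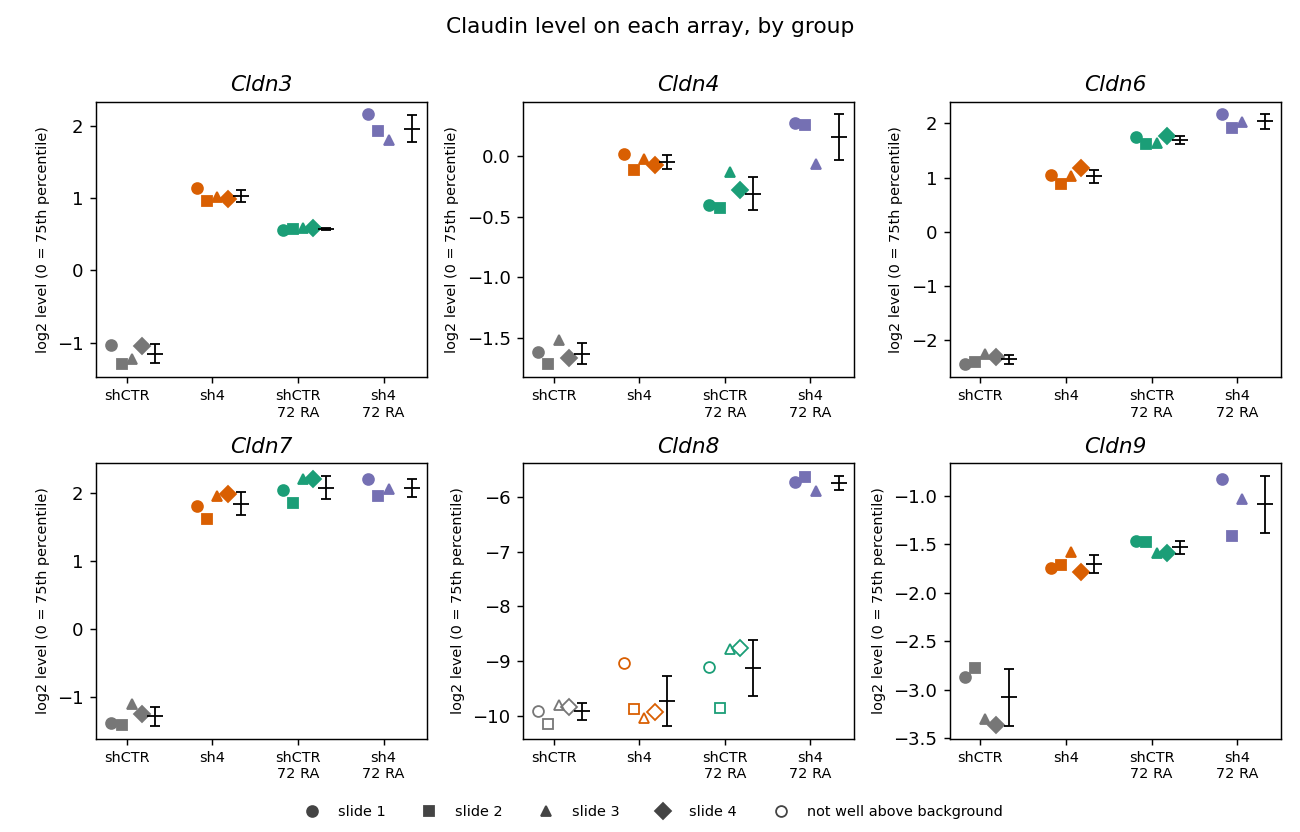
The log2 level of each claudin relative to the array's 75th percentile (0 on the vertical axis), by group, with 1 symbol per array, the shape giving the slide and open symbols arrays not well above background. Black bars give mean ± SD over 4, 4, 4 and 3 arrays. For Cldn3, Cldn4, Cldn6, Cldn7 and Cldn9 the 4 shCTR arrays lie below all others, while Cldn8 is filled in sh4 with retinoic acid alone.

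Retinoic acid was then compared with no treatment in the control hairpin. All 5 measured claudins rose, and the Cldn8 probe was not well above background in either group. Genes called higher made up 29% of all genes tested and those called lower 33.5%. The median log2 change of the 5 was 1.73 and that of all genes −0.12.

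Cldn6 had the largest change of the 6, 16.4-fold. Its signal was 5647, 5585, 5537 and 5463 in shCTR with retinoic acid, above all untreated arrays of both hairpins. The level of 1.69 ± 0.08 (SD, n = 4) gave a log2 change of 4.04 ± 0.08 SE (adjusted p = 8.6e-14, limma; 3.89 to 4.18 within slides). Cldn7 rose 10.3-fold, to readings of 6939, 6546, 8284 and 7404. Its log2 change was 3.36 ± 0.11 SE (adjusted p = 9e-12, limma; 3.24 to 3.45 within slides).

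The other 3 detected claudins rose by less. Cldn3 read 2480, 2705, 2670 and 2403 and rose 3.31-fold (log2 change 1.73 ± 0.08 SE, adjusted p = 5e-10, limma; 1.59 to 1.88 within slides). Cldn9 read 610, 653, 595 and 532 and rose 2.92-fold (1.55 ± 0.14 SE, adjusted p = 3.7e-07; 1.31 to 1.77 within slides). Cldn4 read 1277, 1349, 1629 and 1319 and rose 2.50-fold (1.32 ± 0.09 SE, adjusted p = 1.4e-08; 1.22 to 1.39 within slides). None of these overlapped untreated shCTR.

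In sh4 cells with retinoic acid 3 of the 5 measured claudins rose, Cldn3, Cldn6 and Cldn9, where 27.1% of all genes were called higher and 31.6% lower. Cldn3 read 7487, 5905 and 6500 in sh4 with retinoic acid, the highest group for this gene, and rose 1.91-fold (log2 change 0.94 ± 0.09 SE, adjusted p = 7.9e-07, limma; 0.79 to 1.02 within slides). Cldn6 read 7541, 5867 and 7551 and rose 2.01-fold (1.01 ± 0.08 SE, adjusted p = 1.8e-07; 1.00 to 1.13 within slides). Both groups were apart for both genes.

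Cldn9 read 944, 587 and 915 in sh4 with retinoic acid, the array on slide 2 being well below the other pair. It rose 1.53-fold (0.61 ± 0.15 SE, adjusted p = 0.0034, limma; 0.30 to 0.91 within slides). Cldn7 (7743, 6020 and 7800) overlapped untreated sh4, with a change of 0.23 ± 0.12 SE (adjusted p = 0.11; 95% interval −0.02 to 0.49). With slide as a block this Cldn7 change was 0.27 and passed (adjusted p = 0.0092; 0.12 to 0.41 within slides). Cldn4 (2038, 1872 and 1795) also overlapped untreated sh4, with a change of 0.21 ± 0.10 SE (adjusted p = 0.081; −0.03 to 0.37 within slides). Without replicate 4 of sh4 with retinoic acid the Cldn4 change was 0.32 (adjusted p = 0.0095).

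The hairpins were also compared within retinoic acid. Here 3 of the 5 measured claudins were higher in sh4, Cldn3, Cldn4 and Cldn6, against 10.9% of all genes called higher and 10.3% called lower. The median of the 5 was 0.44 and that of all genes 0.04. Cldn3 was 2.61-fold higher (log2 change 1.39 ± 0.09 SE, adjusted p = 2.7e-07, limma; 1.22 to 1.6 within slides), with all 3 sh4 arrays above all 4 shCTR arrays. Cldn4 was 1.39-fold higher (0.47 ± 0.10 SE, adjusted p = 0.0027), but its within-slide differences ran from 0.08 to 0.69. The second Cldn4 probe gave 0.49 (adjusted p = 0.045).

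Cldn6 was 1.27-fold higher (0.34 ± 0.08 SE, adjusted p = 0.011, limma; 0.29 to 0.42 within slides). That call was lost without replicate 1 of sh4 with retinoic acid (0.27, adjusted p = 0.065) and with normexp background correction and quantile scaling (0.27, adjusted p = 0.24). Cldn9 differed by 0.44 ± 0.15 SE (adjusted p = 0.059; 0.07 to 0.64 within slides), with the arrays of both groups apart, and passed without replicate 3 of sh4 with retinoic acid (0.60, adjusted p = 0.016). Cldn7 differed by 0.00 ± 0.12 SE (adjusted p = 0.99), with a 95% interval from −0.26 to 0.25.

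Cldn8 was found well above background on all 3 arrays of sh4 with retinoic acid and on none of the other 12. Its processed signal there was 31.8, 31.6 and 31.5, far below that of the other members' probes in the same cells, which are different probes and not to be ranked. In shCTR with retinoic acid it read 3.07, 1.95, 4.05 and 3.71. The level in sh4 with retinoic acid was at least 4.47-fold that of shCTR with retinoic acid, at least 4.28-fold that of untreated sh4 and at least 4.29-fold that of untreated shCTR. For these folds the dim group is set to the lowest signal that counts as well above background on each of its arrays. These bounds hold for the processed signal alone. In the deposited log2 values the fitted log2 differences of Cldn8 were smaller, 0.47 between hairpins in retinoic acid and 0.53 for retinoic acid in sh4.

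Cldn8 entered the test only through the group in which it was high, so its calls are given as a description and stand in no count of members. The adjusted p-values of its fitted differences, which do not test these folds, were 1.5e-06 between hairpins in retinoic acid and 2e-08 for retinoic acid in sh4 (limma). With normexp correction and scaling to the 75th percentile, an alternative chosen after seeing the data, they were 0.061 and 0.035, so the first was no longer called.

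**Figure D2:**
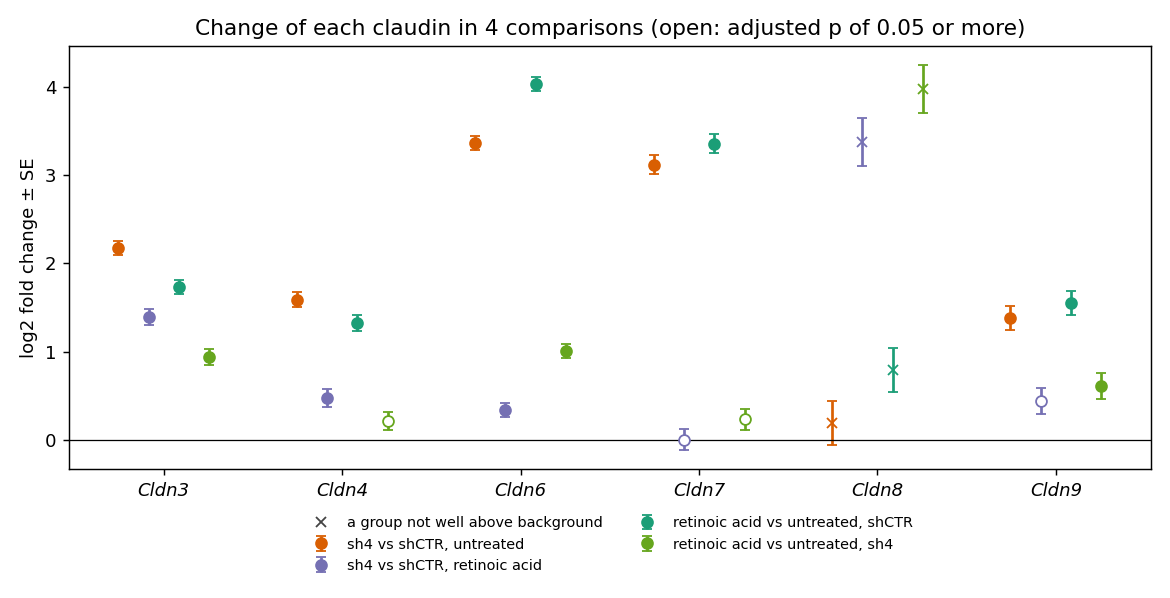
Log2 fold changes (vertical axis, ± SE from limma) of the 6 claudins in 4 comparisons, filled where the adjusted p was under 0.05. For Cldn6 and Cldn7 the change between hairpins is 3.37 and 3.12 in untreated cells and 0.34 and 0.00 in retinoic acid. Crosses mark Cldn8, for which 1 or both groups were not well above background and the fitted value is no measured size.

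The interaction asks whether the hairpin effect in retinoic acid differed from that in untreated cells. It was called lower for all 5 measured claudins, where 10.2% of all genes were called lower and 10.2% higher. The hairpin effect was smaller in retinoic acid by 3.12 log2 units for Cldn7 (−3.12 ± 0.16 SE, adjusted p = 3.3e-08, limma) and by 3.03 for Cldn6 (−3.03 ± 0.12, adjusted p = 3.2e-09). The interaction was −1.12 ± 0.13 for Cldn4 (adjusted p = 4.3e-05), −0.93 ± 0.21 for Cldn9 (adjusted p = 0.0059) and −0.79 ± 0.12 for Cldn3 (adjusted p = 0.00047). Within each of the 3 slides that held all 4 groups the interaction of these 5 genes was below 0. The median interaction of the 5 was −1.12. Of the groups that enter the interaction of Cldn8, only sh4 with retinoic acid had a measured level, so no size is given for it.

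The order of the groups set the genes apart. For Cldn3 it was shCTR, shCTR with retinoic acid, sh4, and sh4 with retinoic acid, and every neighbouring pair differed. Untreated sh4 lay above shCTR with retinoic acid for this gene, whose change from sh4 to shCTR with retinoic acid was −0.45 ± 0.08 SE (adjusted p = 0.00034, limma). In that last contrast 62% of all genes were called in either direction. Cldn4 had the same order, with the middle pair closer (−0.27, adjusted p = 0.017) and sh4 not separated from sh4 with retinoic acid. With the second Cldn4 probe the middle pair did not pass (−0.29, adjusted p = 0.11).

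For Cldn6 shCTR with retinoic acid lay above untreated sh4, by 0.67 ± 0.08 SE (adjusted p = 4.8e-06, limma), and below sh4 with retinoic acid. For Cldn7 the 3 groups above untreated shCTR were close together: shCTR with retinoic acid exceeded sh4 by 0.24 (adjusted p = 0.077; 0.0097 with slide as a block). For Cldn9 shCTR with retinoic acid and sh4 were not separated either (0.17 ± 0.14 SE, adjusted p = 0.32; 95% interval −0.14 to 0.48). Between untreated shCTR and sh4 with retinoic acid, 60.3% of all genes were called. Across that contrast Cldn6 differed 20.8-fold, Cldn7 10.2-fold, Cldn3 8.66-fold, Cldn9 3.97-fold and Cldn4 3.47-fold, all higher in sh4 with retinoic acid.

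The levels of Cldn3, Cldn4, Cldn6, Cldn7 and Cldn9 followed each other over the 15 arrays, with pairwise Pearson r from 0.900 for Cldn3 and Cldn7 to 0.988 for Cldn6 and Cldn7. These values are a measure of likeness over 15 arrays that share 4 groups, and they mostly reflect the differences between the groups. Among 16196 named genes, those most like Cldn6 were Septin4 (0.998), Thbs1 (0.997) and Kif1a (0.997). Those most like Cldn7 were Galnt3 (0.993), Cxcl16 (0.991) and Epha1 (0.988). For Cldn3 they were Macc1 (0.990), Nsmaf (0.988) and Ckap5 (0.985), for Cldn4 Rhbdf1 (0.988), Slc40a1 (0.988) and Psmb8 (0.986), and for Cldn9 H2-M3 (0.988), Tfap2e (0.976) and Mal (0.975). No likeness is given for Cldn8, which was well above background on 3 of the 15 arrays.

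The genes that flank the claudins were read next. Tnfrsf12a, a TNF receptor family member beside Cldn6, rose by 1.58 in sh4 without treatment and by 2.54 with retinoic acid in shCTR, and its interaction was −1.29. Mettl27, beside Cldn4, rose by 0.53 in untreated sh4 and fell by 0.45 with retinoic acid in shCTR. Abhd11, beside Cldn3, rose by 0.38 in untreated sh4 and fell by 1.28 with retinoic acid in shCTR. Beside Cldn7, the glucose transporter Slc2a4 differed by 0.04 in untreated sh4 (adjusted p = 0.8) and −0.05 with retinoic acid in shCTR (adjusted p = 0.54), but it was higher in sh4 within retinoic acid (0.40, adjusted p = 0.0011) and rose with retinoic acid in sh4 (0.32, adjusted p = 0.0016), with an interaction of 0.37 (adjusted p = 0.016). Elp5, on the other side of Cldn7, passed in none of the 5 comparisons, and in 1 with slide as a block, between hairpins in retinoic acid (adjusted p = 0.048). Beside Cldn9, 1520401A03Rik did not enter the test. Beside Cldn8, neither Cldn17 nor Krtap24-1 passed in any of them. Each adjusted p is from limma, over all genes.

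Of the claudins outside the 6, 17 were on the array and 13 entered the test. In untreated sh4, 2 of the 13 rose and none fell, with a median log2 change of 0.03, where 14.4% of all genes were called higher. Whether they differ from the 6 was not tested. The 2 were Cldn2, a claudin of leaky, cation-permeable epithelia, and Cldn12, which rose by 0.30 ± 0.07 SE (adjusted p = 0.0044, limma). Cldn2 was not well above background in untreated shCTR, and its level was at least 1.82-fold higher in sh4, at least 2.95-fold higher in shCTR with retinoic acid and at least 2.92-fold higher in sh4 with retinoic acid. Its interaction was the only one called among the 13 (adjusted p = 0.0018, limma), where 10.2% of all genes were called lower and 10.2% higher. The size of the Cldn2 interaction is not given because of the dim control group.

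With retinoic acid in shCTR, 5 of the 13 other claudins rose and 2 fell, where 29% and 33.5% of all genes did. In sh4 5 rose and 1 fell, or 5 and 3 with slide as a block, against 27.1% and 31.6% of all genes. Cldn10a rose by 1.75 and 1.24 in the 2 hairpins and Cldn11, the claudin of myelin and of the Sertoli cell barrier, by 1.44 and 1.45. These sizes are uncertain. In untreated shCTR and sh4, Cldn10a was well above background on 3 and 2 of 4 arrays and Cldn11 on 2 and 2. Cldn5, the claudin of blood vessel lining, fell by 1.6 and 1.91. Between the hairpins in retinoic acid none of the 13 rose and 1 fell (10.9% and 10.3% of all genes), Cldn10a (−0.62 ± 0.19 SE, adjusted p = 0.038, limma). With slide as a block the Cldn10a call was lost (adjusted p = 0.057) and Cldn14 was called in its place (−0.46, adjusted p = 0.0079). Cldn1, Cldn16 and Cldn18 were well above background on no array and Cldn22 on 2.

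**Figure D3:**
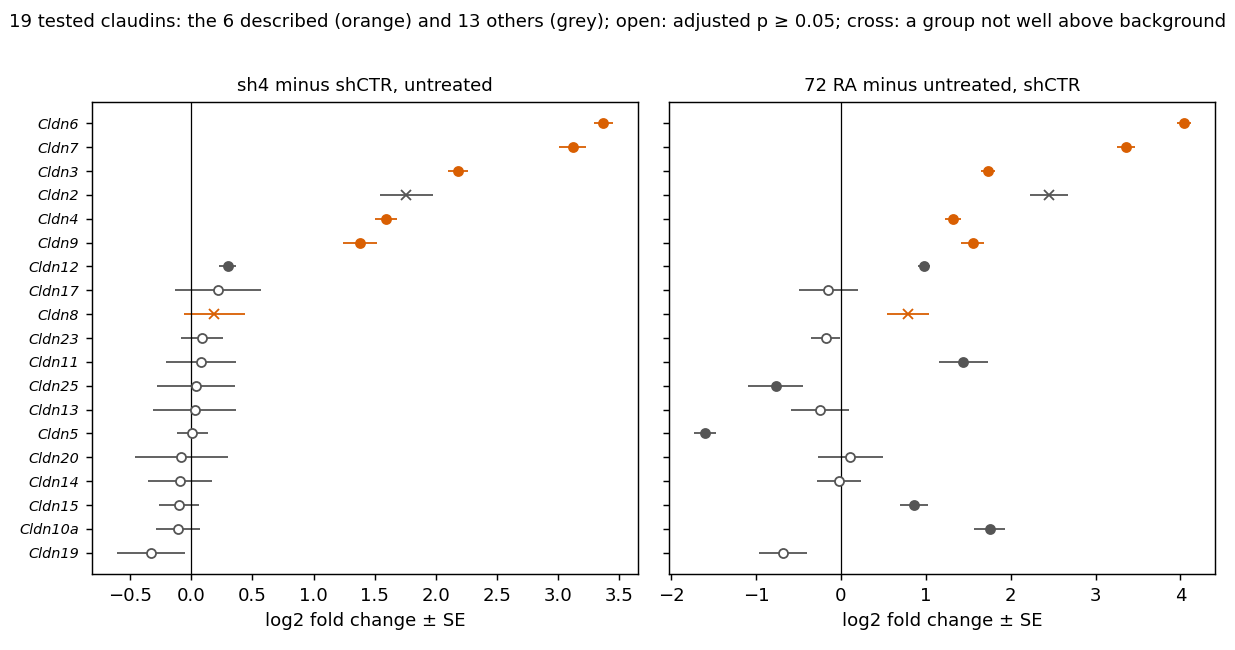
Log2 fold changes (horizontal axis, ± SE) of the 19 claudins tested, sh4 against shCTR in untreated cells on the left and retinoic acid against no treatment in shCTR on the right, filled where the adjusted p was under 0.05. On the left Cldn6, Cldn7, Cldn3, Cldn4 and Cldn9 lie at 3.37, 3.12, 2.18, 1.59 and 1.38, and Cldn12 at 0.30 is the other filled point. Crosses mark values with a group not well above background on any array (Cldn2 and Cldn8).

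Tight junctions need further proteins, and 36 genes of these were followed: the other strand proteins, scaffolds and polarity complexes. In untreated sh4, 20 of the 36 rose and 2 fell, with a median log2 change of 0.37 (all genes: 14.4% higher, 14.1% lower, median 0.02). Patj, a scaffold of the Crumbs polarity complex, rose by 2.40 ± 0.07 SE, the Crumbs protein Crb3 by 2.12 ± 0.08 and the adaptor cingulin, Cgn, by 1.54 ± 0.05. Occludin, Ocln, the classic strand protein beside the claudins, rose by 1.09 ± 0.09 (adjusted p = 9.3e-07, limma), and Tjp1, the scaffold ZO-1, by 0.58 ± 0.09 (adjusted p = 0.00018). The 2 that fell were Ildr1 (−0.95) and Jam2 (−0.90).

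With retinoic acid in shCTR, 25 of the 36 rose and 6 fell (median 0.73), where 29% of all genes were called higher and 33.5% lower (median −0.12). In sh4 20 rose and 6 fell (median 0.39), where 27.1% of all genes were called higher and 31.6% lower (median −0.12). Patj rose by 4.6 and 2.19 in the 2 hairpins, while the adhesion molecule Jam2 fell by 5.27 and 5.25. Between the hairpins in retinoic acid, 13 rose and 3 fell (median 0.14), against 10.9% and 10.3% of all genes (median 0.04). Without replicate 1 of sh4 with retinoic acid these 16 calls came down to 10. The changes of the 36 between hairpins in retinoic acid ran from −0.88 to 0.99. Marveld3 had a log2 level of −3.49 in shCTR and −2.5 in sh4, Tjp3 of −0.03 and 0.79, and Jam2 of −1.12 and −2. Ocln differed by 0.02 there (adjusted p = 0.93, limma), with Cldn7 at 0.00, and Patj by −0.01 (adjusted p = 0.96). The interaction was called lower for 12 of the 36 and higher for 1, Ildr1 (1.09), where 10.2% of all genes were called lower and 10.2% higher. Ocln stood at −1.06 (adjusted p = 9.1e-05, limma) and Tjp1 at −0.11 (adjusted p = 0.7).

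**Figure D4:**
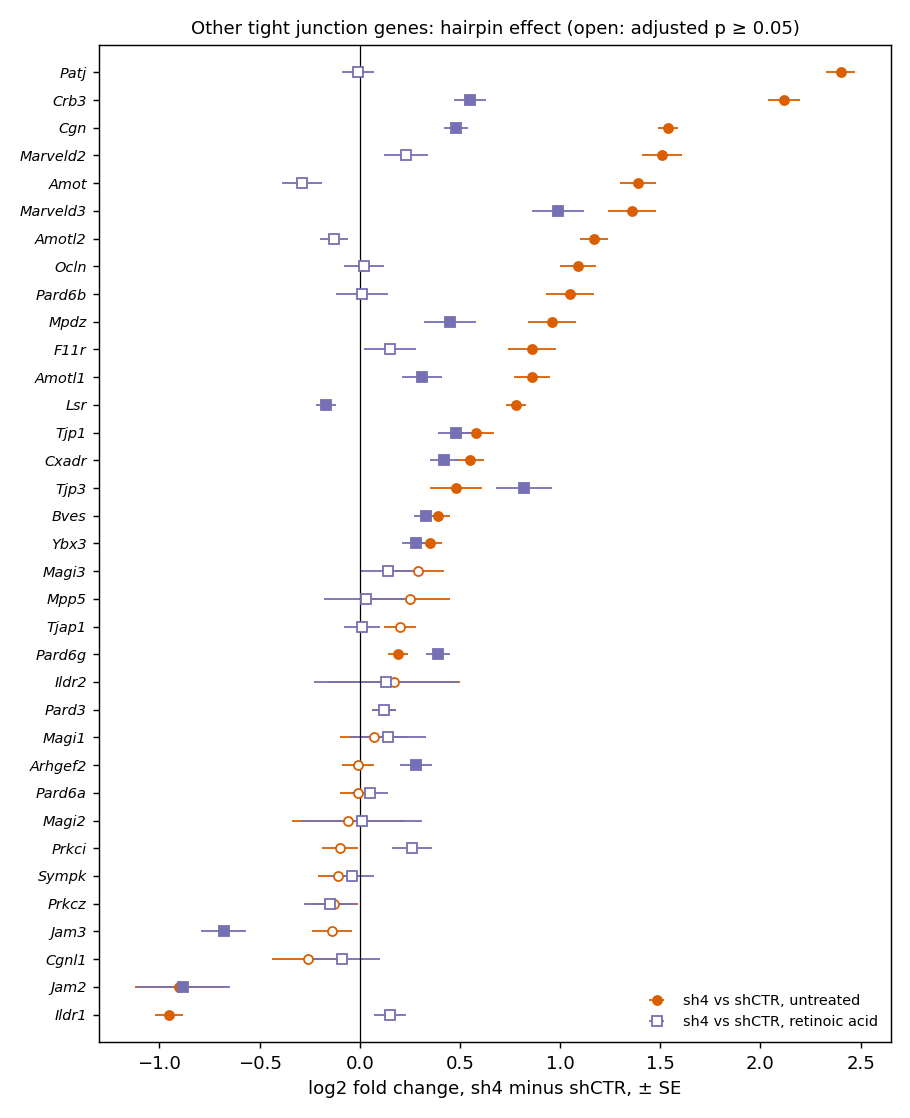
Log2 fold changes of sh4 against shCTR (horizontal axis, ± SE) for 35 of the 36 other tight junction genes, in untreated cells (circles) and in retinoic acid (squares), filled where the adjusted p was under 0.05 and ordered by the untreated value. Patj runs from 2.40 in untreated cells to −0.01 in retinoic acid and Ocln from 1.09 to 0.02, while Tjp1 lies at 0.58 and 0.48.

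Epithelial partners of the claudins, a list of 21 adhesion, protease and keratin genes, rose in 16 cases and fell in 1 in untreated sh4 (14.4% and 14.1% of all genes). Epcam, whose protein holds Cldn7 at the membrane, rose by 1.26 ± 0.08 SE (adjusted p = 3.5e-08, limma), and E-cadherin, Cdh1, by 0.72 ± 0.07 (adjusted p = 2.9e-06). In retinoic acid 11 of the 21 were higher in sh4 and 2 lower (10.9% and 10.3% of all genes). Unlike Cldn7, Epcam and Cdh1 stayed called there, at 0.97 and 0.79, and their interactions did not pass (−0.29, adjusted p = 0.092, and 0.07, adjusted p = 0.76). Over the list, the interaction was called lower for 9 of the 21 and higher for 1, where 10.2% of all genes were called each way. With retinoic acid in shCTR 13 of the 21 rose and 2 fell (29% and 33.5% of all genes), with a median of 0.65. Epcam fell by 0.35 there (adjusted p = 0.00099) and Cdh1 changed by −0.09 (adjusted p = 0.27), while all 5 members measured above background rose.

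Of 23 transcription and splicing factors known from epithelia, 6 rose and 11 fell in untreated sh4 (14.4% and 14.1% of all genes). With retinoic acid in shCTR, 14 rose and 5 fell (29% and 33.5% of all genes). Grhl2, a direct activator of claudin genes in several epithelia, rose by 2.25 ± 0.10 SE in untreated sh4 and fell by 1.30 with retinoic acid in shCTR. Cdx2 rose by 4.16 and 2.64 in these comparisons, and the splicing factor Esrp1 by 2.68 and 0.89. Among those that fell in untreated sh4 were Gata6 (−1.91), Sox17 (−1.88) and Hnf4a (−1.84), transcription factors of endoderm. Between the hairpins in retinoic acid, 4 of the 23 were higher in sh4 and 13 lower (10.9% and 10.3% of all genes). Grhl2 had a log2 level of −2.83 in shCTR and −0.91 in sh4 there. Of 6 repressors of epithelial genes, 3 rose and 3 fell in untreated sh4. Zeb1 (−1.49), Snai2 (−0.85) and Snai1 (−0.41) fell, and Twist2 (1.58), Zeb2 (0.83) and Twist1 (0.78) rose. With retinoic acid in shCTR 5 of the 6 rose, Twist2 by 5.28 and Snai1 by 2.94 among them, and Zeb1 fell by 0.61. Twist2 was well above background on only 1 untreated shCTR array, so its sizes are uncertain.

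Markers of other cell types were followed beside the claudins, and they moved in different directions. Of 10 genes known from trophectoderm, the first epithelium of the embryo, 9 rose and none fell in untreated sh4 (14.4% and 14.1% of all genes). Cdx2 (4.16), Krt7 (4.02) and Krt18 (3.91) were at the top and Eomes (0.53) and Tfap2c (0.52) lower. With retinoic acid in shCTR 8 of the 10 rose (29% of all genes), and Tfap2c fell by 1.45 (33.5% of all genes were called lower). The summed level of the 10, in multiples of the 75th percentile, was 6.4 to 8.06 in shCTR and 75.3 to 85.8 in sh4. It was 299 to 323 in shCTR with retinoic acid and 272 to 332 in sh4 with retinoic acid. Krt8 and Krt18, keratins of simple epithelia in general, made up 72.3%, 94.5%, 98.4% and 97.7% of it, so the sum says little of the other 8. Elf5 was well above background on no shCTR array.

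Of 13 genes of visceral and primitive endoderm, 9 fell and none rose in untreated sh4 (14.1% and 14.4% of all genes), opposite to the claudins. All 13 rose with retinoic acid in shCTR (29% of all genes). Their sums were 2.07 to 2.30, 0.835 to 0.957, 59.1 to 69.2 and 14.4 to 14.6 in the same order of groups, with Ttr well above background on no untreated array. Of 7 surface ectoderm genes, 2 rose and 2 fell in untreated sh4 (14.4% and 14.1% of all genes), Perp by 1.70 upward and Trp63 by 1.04 downward among them. With retinoic acid in shCTR 4 of the 7 rose and 1 fell (29% and 33.5% of all genes). Their sums were 6.63 to 7.89, 7.74 to 8.07, 53.1 to 61.4 and 35.7 to 41.7, and Trp63 alone made up 89.4% of the third.

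Of the kidney and lung tubule markers, the tissues in which Cldn8 is best known, Umod, Nkx2-1 and Sftpc did not enter the test. None of the other 3 was called higher between groups in any of the 4 comparisons of hairpin or treatment. Pax8 was called lower in all 4, at −1.78 and −0.39 between hairpins in untreated cells and in retinoic acid. With retinoic acid it changed by −2.81 in shCTR and −1.41 in sh4, and its interaction was called higher (1.39). Fibroblast markers, which a feeder layer would add, summed to 2.50 to 2.85 in shCTR and 1.01 to 1.14 in sh4, of which Thy1 made up 78.5% and 58.7%. Between these 2 groups 3 of 8 fell (Col1a1, Thy1 and Pdgfrb) and 3 rose (Col3a1, Dcn and Lum), where 14.1% and 14.4% of all genes did. Col3a1, Dcn, Lum and Postn were well above background on no untreated shCTR array, and in untreated sh4 Col3a1 was on 1 array and Lum on 2. With retinoic acid the fibroblast sums were 6.95 to 8.58 in shCTR and 9.09 to 9.35 in sh4. ES cell markers summed to 291 to 373, 268 to 314, 93.3 to 101 and 50.7 to 61.3. Dppa5a alone made up 89.9% and 90.3% of the last 2 of these, so those sums say little of the other markers. With retinoic acid in shCTR 6 of the 7 ES cell markers fell and none rose (33.5% and 29% of all genes), with a median log2 change of −5.06. The part of these cell types in the claudin changes was not tested. In bulk RNA, more cells of a type and more RNA per cell cannot be told apart.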

How the data were processed

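Total RNA was labelled with Cy3 and hybridised to 1-colour arrays. Spot intensity values were deposited as scanner files, made with background subtraction by Feature Extraction 10.7.3.1 per the file headers, with coordinates on mm9. A further deposited table holds log2 values. How the authors made it is not given here. It matched normexp (offset 50) with quantile scaling (median absolute difference 3.4e-10) and served as an alternative. Precision is limited by the number of arrays.

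Each array was centred by taking its 75th percentile from the log2 processed signal. Probes were kept where at least 3 arrays of 1 group marked them as well above background, and per gene name the probe with the highest mean signal. Groups were compared with limma 3.58.1 in R 4.3.3 (package data.table, version 1.17.8) in 1 model over 15 arrays, two-sided, with Benjamini-Hochberg adjustment over all genes and a threshold of 0.05. The code was tested on simulated data. Named list genes were the 3 largest changes per list and comparison, plus Ocln, Tjp1, Epcam, Cdh1, Grhl2, Snai1 and Zeb1; other claudins past 1 log2 unit were named. Cldn12, Cldn14 and list genes that moved against the largest changes were named after their values were seen; genes beside a member and the 3 most like it were named by rule. Results of some list genes are not reported here, though list counts include them. Members and lists were chosen with earlier results of these data known. Alternatives were the scaling, background correction, filter, probe choice, slide or replicate block, the groups fitted and each array left out.

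Deviations from group means correlated at 0.115 to 0.578 in 15 array pairs that share slide and number. They did so at 0.408 to 0.607 in 6 that share the slide alone, and at −0.533 to 0.558 in 6 that share the number alone. The slide was therefore taken as the batch, and the number was not taken to pair samples. The main model held no slide term, and slide as a block was run as an alternative. With that block, all-gene calls between hairpins in untreated cells went from 7165 to 9063.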

Additional observations from a re-analysis of the deposited data

Results flagged for a closer look

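The hairpin effect in retinoic acid differed from that in untreated cells, by the interaction test in limma, for the 5 measured claudins. The values were −0.79 for Cldn3, −1.12 for Cldn4, −3.03 for Cldn6, −3.12 for Cldn7 and −0.93 for Cldn9. Cldn8 was flagged with the opposite sign, but it entered the test only through the group in which it was high. Its probe was not well above background in 3 of the 4 groups, so its fitted value of 3.19 is no measured size. With normexp correction and scaling to the 75th percentile the Cldn8 interaction was not called (adjusted p = 0.1, limma). In untreated sh4, replicate 1 had a Cldn8 level of −9.04, far from the other 3 arrays of its group by Dixon's test. That array was not well above background for Cldn8, and chance alone would mark about 1 group in 20.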

How the results depend on the processing

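With normexp correction and the 75th percentile, chosen after seeing the data, all-gene calls fell from 7165 to 4639 (hairpin, untreated), from 5325 to 3392 (hairpin, retinoic acid) and from 5132 to 3048 (interaction). The median of all genes moved from −0.12 to −0.23 for retinoic acid in shCTR, where higher calls went from 46.4% to 36.3% of calls. In that comparison Cldn8 turned from 0.79 to −0.18, neither group being well above background. The cause was not tested. The direction and call of Cldn3 held under all alternatives run. So did those of Cldn4, Cldn6, Cldn7 and Cldn9 in untreated sh4 and in shCTR with retinoic acid. The interaction calls of the 5 measured claudins held as well. Leaving out arrays, tight junction calls between hairpins in retinoic acid ranged from 10 to 17 of 36. The replicate block changed 1 claudin call, Cldn9 between hairpins in retinoic acid (0.48, adjusted p = 0.029, limma). That Cldn9 difference also passed with quantile scaling (0.46, adjusted p = 0.038) and in the deposited log2 values (0.38, adjusted p = 0.027). It passed in 8 of 25 alternatives. Cldn7 with retinoic acid in sh4 passed with quantile scaling (0.39, adjusted p = 0.012, limma). It also passed in the deposited log2 values (0.46, adjusted p = 0.00029) and with normexp correction and the 75th percentile (0.28, adjusted p = 0.035). A filter that asked for signal on all arrays removed Cldn8. Signal over background limits what can be said of Cldn8 and Cldn2, and of the sizes given for Cldn10a, Cldn11 and Twist2.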
